A study of Rattus norvegicus with 12 samples.

Results

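The 10 genes described here code for the membrane coats and scaffolds of caveolae and transverse tubules: the caveolins Cav1, Cav2 and Cav3, the cavins Ptrf, Sdpr, Prkcdbp and Murc, the junctophilins Jph1 and Jph2, and the amphiphysin family member Bin1. They were taken by name from the transcript tables of adult rat ventricular myocytes (ARVMs), where they are 10 of 17301 gene names and fill 11 of 18752 transcript rows. Cav1 was listed with 2 transcripts and every other member with 1. All 10 were above 0 in all 12 samples, and so all were tested.

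ARVMs isolated from the hearts of Sprague Dawley rats were transduced with Ad-h-NR4A2, an adenovirus that drives full-length human NR4A2 from the cytomegalovirus promoter, or with Ad-GFP, which carries enhanced green fluorescent protein. NR4A2 is an orphan nuclear receptor. Both adenoviruses were used at a multiplicity of infection (MOI) of 50, and total RNA was taken 48 h later from 6 samples per group, numbered 24 to 29 in each. The design text of the series speaks of 6 separate experiments with cells from different rats, and both groups were kept in the same medium with the contraction inhibitor butanedione monoxime. The ages of the rats are not given in the sources used here, and no sample without virus was analysed here, so that an effect shared by both viruses cannot be seen in this comparison.

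Caveolae are flask-shaped pits of the plasma membrane. Caveolins sit in the inner leaflet of the membrane and form oligomers, with Cav3 as the muscle member and Cav1 and Cav2 as the pair found in endothelial cells, fibroblasts, and adipocytes. Cavins form a coat around the pit: Ptrf (cavin-1) is needed for its assembly, Sdpr (cavin-2) and Prkcdbp (cavin-3) bind to Ptrf, and Murc (cavin-4) is the muscle member. Transverse tubules (T-tubules) are inward folds of the same membrane that bring calcium channels close to the sarcoplasmic reticulum. Bin1 bends the tubule membrane, and junctophilins tether it to the sarcoplasmic reticulum at the dyad.

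The samples matched their labels. The Nr4a2 transcript was between 0.626 and 1.40 FPKM (fragments on a transcript relative to its length and to the depth of the sample) in the Ad-GFP samples and between 445 and 592 FPKM in the Ad-h-NR4A2 samples. Depth, recovered from the lowest values, ranged from 19000000 to 28200000 fragments in Ad-GFP and from 21700000 to 27500000 in Ad-h-NR4A2. Cardiomyocyte markers dominated in all samples, with a summed level of 29815 to 37126 FPKM over 7 genes in Ad-GFP and 26523 to 31485 FPKM in Ad-h-NR4A2, and 5 of the 7 were lower in Ad-h-NR4A2 (adjusted p below 0.05, limma). Summed levels of 9 endothelial markers were 10.7 to 34.7 and 12.0 to 36.3 FPKM, with Egfl7 called (higher), and Kdr (lower) in addition with the replicate block. For 8 fibroblast markers they were 9.12 to 30.4 and 5.84 to 27.1 FPKM, with Col1a2 listed at 0 in every sample and Col3a1 called (lower), and Col1a1 and Pdgfra (lower) in addition with the block. For 7 smooth muscle and pericyte markers they were 16.7 to 27.6 and 11.2 to 23.5 FPKM, with Myh11 and Cspg4 called (lower). The 5 macrophage and leukocyte markers summed to 6.07 to 17.3 and 38.9 to 45.5 FPKM, of which Csf1r made up nearly all; Csf1r and Cd14 were called (higher), while Ptprc and Cd163 were near 0. Among all genes tested, 19.3% were called higher and 21.7% lower, and with the replicate block 27.1% and 32.3%. The part of these markers in the results on caveola and T-tubule genes was not tested. In bulk RNA, fewer cells of a type and less RNA per cell cannot be told apart.

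Of the 10 genes, 1 was upregulated by Ad-h-NR4A2 (Prkcdbp) and 4 were downregulated (Ptrf, Murc, Jph1, and Bin1) at an adjusted p below 0.05 in the limma fit across 10950 genes, whereas 5 did not pass (Cav1, Cav2, Cav3, Sdpr, and Jph2). Across all genes tested, 19.3% were higher and 21.7% lower by the same rule. With a ratio of group means of at least 1.5 in addition, 1 member was higher (Prkcdbp) and 2 were lower (Jph1 and Bin1), beside 7.94% and 7.24% of all genes. The 6 samples of one group did not overlap with the 6 of the other for 1 gene that was higher (Prkcdbp) and 2 that were lower (Murc and Jph1), beside 10.9% and 10.6% of all genes. The median log2 fold change was -0.21 over the members, ranging from -0.86 (Bin1) to 0.73 (Prkcdbp), and -0.02 over all genes tested. When the sample number was added as a replicate block, 2 members were higher (Prkcdbp and Sdpr) and 5 were lower (Cav3 in addition), 7 in all, but by that fit 27.1% of all genes were higher and 32.3% lower.

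**Figure D1:**
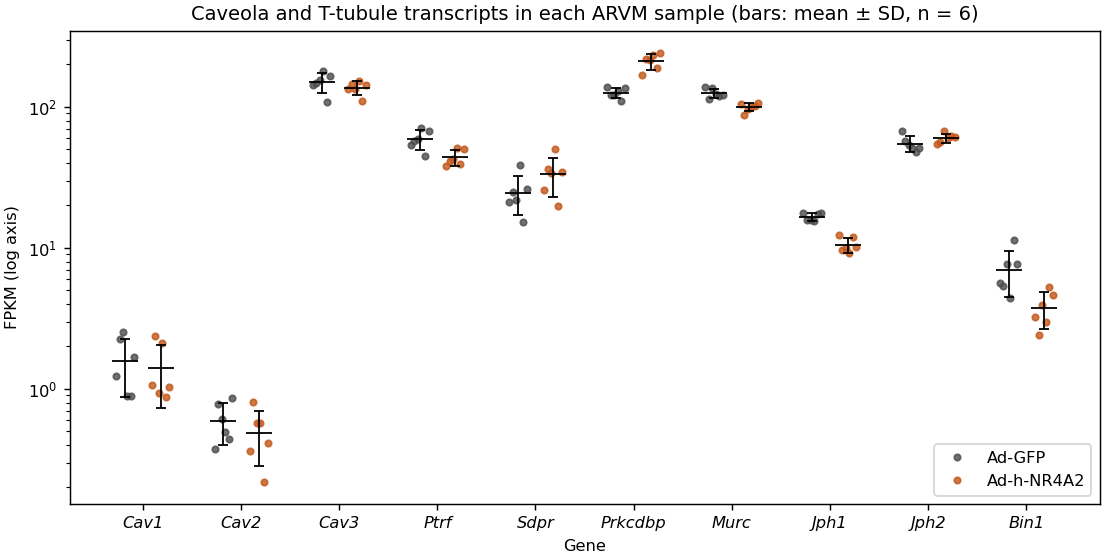
FPKM of the 10 genes in each sample (log axis; grey Ad-GFP, orange Ad-h-NR4A2; horizontal bars are means and error bars SD, n = 6; Cav1 by its more abundant transcript). Prkcdbp lies higher in all 6 Ad-h-NR4A2 samples than in any Ad-GFP sample, Murc and Jph1 lie lower, and Cav1 and Cav2 sit far below the muscle member Cav3.

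In control cells the order of the levels, by mean FPKM, was Cav3, Prkcdbp, Murc, Ptrf, Jph2, Sdpr, Jph1, Bin1, Cav1, and Cav2. Neighbours whose sample ranges overlapped were Cav3 with Prkcdbp, Prkcdbp with Murc, Ptrf with Jph2, and Sdpr with Jph1. In Ad-h-NR4A2 samples the order was Prkcdbp, Cav3, Murc, Jph2, Ptrf, Sdpr, Jph1, Bin1, Cav1, and Cav2, and Ptrf with Sdpr was the one overlapping pair of neighbours. Prkcdbp was thus above Cav3 in every Ad-h-NR4A2 sample, while in Ad-GFP Cav3 was above Prkcdbp in 5 of 6 samples.

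The cavins moved in both directions. Prkcdbp, on chromosome 1 (Rn5 177323467 to 177325056), was between 110.5 and 138 FPKM in Ad-GFP samples with a median of 126, and between 169 and 242 FPKM in Ad-h-NR4A2 samples with a median of 217. The lowest Ad-h-NR4A2 sample was above the highest control. Mean levels of 126 ± 10.4 and 211 ± 27.7 FPKM (SD, n = 6) gave a 1.67-fold higher level, a log2 fold change of 0.73 (SE 0.09, limma adjusted p = 1.54e-05), and the exact permutation test gave the smallest p that 6 against 6 samples allow, 0.00216. Its product binds to Ptrf and was first described as a binding protein of protein kinase C delta.

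Ptrf (chromosome 10, 88659595 to 88671569) had a lowest, median, and highest level of 45.1, 58.2, and 71.2 FPKM in Ad-GFP samples. In Ad-h-NR4A2 samples these were 38.1, 42.0, and 51.0 FPKM. The groups overlapped, because the lowest control (replicate 28) was below Ad-h-NR4A2 replicates 27 and 29, but Ptrf was lower in 6 of 6 same-numbered pairs. The level was 0.742 times that of the control (59.0 ± 9.33 against 43.8 ± 5.50 FPKM, SD, n = 6), with a log2 fold change of -0.42 (SE 0.11, limma adjusted p = 0.00651).

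Murc (chromosome 5, 68926895 to 68934739) was at 113, 122, and 139 FPKM (lowest, median, highest) in Ad-GFP and at 87.6, 101, and 107 FPKM in Ad-h-NR4A2. All Ad-h-NR4A2 samples were below all controls. The decrease was modest, from 125 ± 9.81 to 99.9 ± 6.91 FPKM (SD, n = 6), a log2 fold change of -0.32 (SE 0.06, limma adjusted p = 7.09e-04). Murc and Ptrf were thus both lower. Their ratio within a sample was 2.17 ± 0.389 in Ad-GFP and 2.31 ± 0.303 in Ad-h-NR4A2. The log2 difference of 0.10 (SE 0.13) did not pass (exact permutation test, adjusted p = 0.612 over the 11 ratios compared, of which 5 passed), which does not show an equal fall. Less the group means, Murc had a Pearson r of 0.09 with Ptrf over the 12 samples.

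Sdpr (chromosome 9, 54601716 to 54981754) varied most among the cavins, with a lowest, median, and highest level of 15.3, 23.5, and 38.4 FPKM in Ad-GFP. In Ad-h-NR4A2 samples the values were 19.9, 34.2, and 50.1 FPKM. The groups overlapped widely, and replicate 27 was the highest and replicate 28 the lowest in both. The 1.35-fold difference of the means (log2 0.43, SE 0.22, 95% interval -0.05 to 0.91) did not pass in the unpaired fit (limma adjusted p = 0.143). It passed without Ad-GFP replicate 27 (limma adjusted p = 0.0449) or without Ad-h-NR4A2 replicate 28 (limma adjusted p = 0.0453), with a log2 difference of 0.57 in both cases. Within same-numbered pairs, Sdpr was higher with Ad-h-NR4A2 in 6 of 6, by a log2 of 0.27 to 0.63, and the replicate block gave an adjusted p of 4.02e-05.

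With 2 cavins lower and 1 higher, the makeup of the cavin transcripts differed between the groups. Prkcdbp and Murc were near-equal parts of the summed cavin FPKM in Ad-GFP, at 37.7 ± 1.48% and 37.4 ± 3.07%, and were 54.2 ± 2.49% and 26 ± 3.40% in Ad-h-NR4A2 (SD, n = 6). The share of Ptrf was 17.5 ± 1.80% and 11.3 ± 0.381%, and that of Sdpr was 7.30 ± 1.87% and 8.49 ± 1.95%. These shares sum to the whole in each sample and so are not independent of each other. The summed cavin level was 335 ± 26.9 FPKM in Ad-GFP and 388 ± 40.6 FPKM in Ad-h-NR4A2. Against Ptrf as the common partner, the Prkcdbp ratio was 2.17 ± 0.279 in Ad-GFP and 4.82 ± 0.330 in Ad-h-NR4A2 (log2 difference 1.16, SE 0.08, exact permutation test, adjusted p = 0.00794). The Sdpr to Ptrf ratio was 0.412 ± 0.0702 and 0.753 ± 0.168 (log2 difference 0.85, SE 0.17, exact permutation test, adjusted p = 0.00952). Both ratios were higher in 6 of 6 same-numbered pairs. An exact sign-flip test over the 6 pairs gave 0.06875 after adjustment for both, since 6 pairs allow no unadjusted p under 0.03125.

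**Figure D2:**
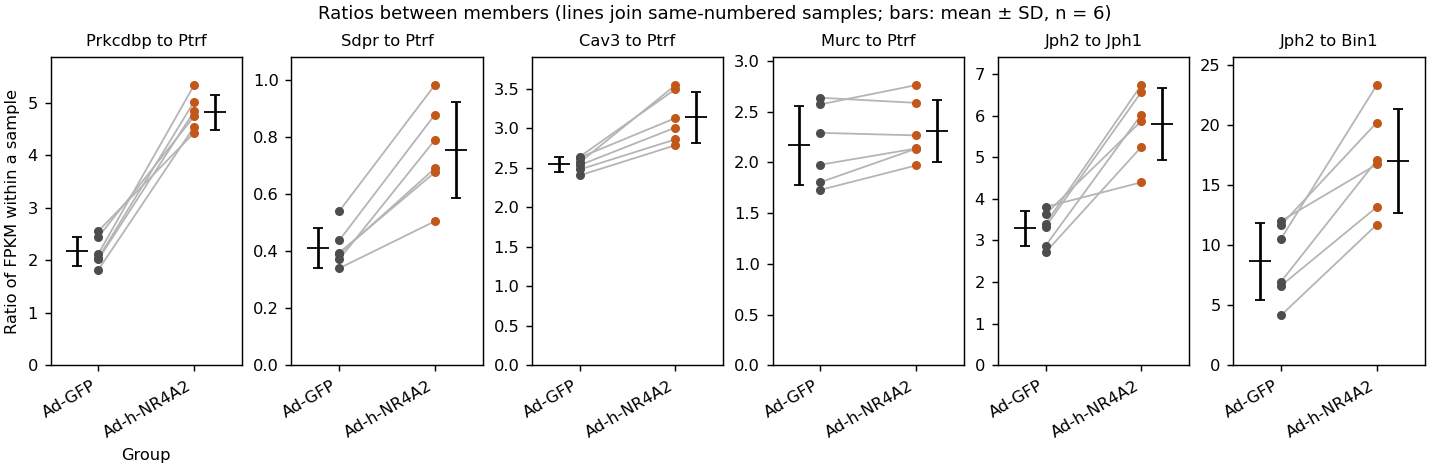
Ratio of FPKM of 2 genes within each sample (y axis, from 0; a panel per ratio; lines join same-numbered Ad-GFP and Ad-h-NR4A2 samples; bars beside the points are mean ± SD, n = 6). Each ratio except Murc to Ptrf is higher with Ad-h-NR4A2 in 6 of 6 pairs; the mean Prkcdbp to Ptrf ratio is 2.17 in Ad-GFP and 4.82 in Ad-h-NR4A2.

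Among the caveolins, Cav3 was by far the most abundant and none passed in the unpaired fit. Cav3 (chromosome 4, 207683202 to 207699176), mutated in inherited muscle disease, had a lowest, median, and highest level of 108, 151, and 180.4 FPKM in Ad-GFP and of 109.9, 139, and 153 FPKM in Ad-h-NR4A2. The ranges overlapped almost fully, and Cav3 was lower with Ad-h-NR4A2 in 5 of 6 pairs. The means of 150.0 ± 24.5 and 137 ± 15.1 FPKM (SD, n = 6) differed by a log2 of -0.13 (SE 0.11, 95% interval -0.36 to 0.11, limma adjusted p = 0.393), and the replicate block gave an adjusted p of 0.0192. Cav3 relative to Ptrf was higher with Ad-h-NR4A2, at 2.54 ± 0.0909 against 3.14 ± 0.320 (log2 difference 0.30, SE 0.06, exact permutation test, adjusted p = 0.00794; sign-flip over pairs, adjusted, 0.06875). The highest control ratio was 2.64 and the lowest Ad-h-NR4A2 ratio 2.78, so that the groups did not overlap. Murc to Cav3, at 0.854 ± 0.159 and 0.741 ± 0.114, did not pass (exact permutation test, adjusted p = 0.333).

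Cav1 and Cav2 lie next to each other on chromosome 4, with Cav2 at 45179519 to 45186895, Cav1 at 45203378 to 45236457, and 16482 bases between them. Both were low. Cav2 was between 0.373 and 0.864 FPKM (median 0.553) in Ad-GFP and between 0.218 and 0.806 FPKM (median 0.492) in Ad-h-NR4A2, which corresponds to 13 to 56 fragments per sample. The difference was a log2 of -0.26 (SE 0.25, 95% interval -0.80 to 0.27, limma adjusted p = 0.427), so that at this depth neither a fall nor a small rise could be told from the spread.

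The 2 transcripts of Cav1 share their locus and have lengths of 2560 and 2552 nucleotides, so that the split of reads between them is uncertain. The transcript NM_031556 was between 0.885 and 2.52 FPKM (median 1.45) in Ad-GFP and between 0.882 and 2.37 FPKM (median 1.05) in Ad-h-NR4A2. The other, NM_133651, had 34.1 ± 18.9% of the Cav1 FPKM in Ad-GFP and 45.3 ± 17.8% in Ad-h-NR4A2 (SD, n = 6, exact permutation test p = 0.307), and was at 9.94e-05 FPKM in 1 control. By NM_031556 alone the log2 difference was -0.16 (SE 0.31, limma adjusted p = 0.709), and by the sum of both it was 0.11 (2.40 ± 0.906 against 2.62 ± 0.899 FPKM, SE 0.28, limma adjusted p = 0.780). The sign of the Cav1 difference thus depended on which transcripts were used, and neither value passed. The Cav2 to Cav1 ratio did not pass with the single transcript (log2 difference -0.16, SE 0.27, exact permutation test, adjusted p = 0.612). With both Cav1 transcripts summed it was 0.253 ± 0.0334 in Ad-GFP and 0.187 ± 0.0380 in Ad-h-NR4A2 (log2 difference -0.45, exact permutation test, adjusted p = 0.0159), lower in 6 of 6 pairs (exact sign-flip test, unadjusted p = 0.03125). Ratios of Cav3 to Cav1 (111 ± 51.8 and 111 ± 35.3) and of Cav3 to Cav2 (271 ± 83.9 and 317 ± 116) did not pass (exact permutation test, adjusted p = 0.903 and 0.612), nor did Cav1 to Ptrf (adjusted p = 0.612).

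Across the 12 samples, each taken as its distance from the group mean on the log2 scale, Cav2 followed the summed fibroblast markers (Pearson r = 0.91) and the summed endothelial markers (r = 0.90), and Cav1 followed them with r = 0.81 and 0.71. Other members shared some of this variation with the fibroblast and endothelial sums. The values were 0.68 and 0.73 for Cav3, 0.64 and 0.67 for Sdpr, 0.55 and 0.53 for Prkcdbp, and 0.46 and 0.61 for Ptrf. Jph1 (-0.68 and -0.70), Bin1 (-0.59 and -0.48), and Murc (-0.43 and -0.45) ran against the sums, and Jph2 had 0.06 and -0.04. By mean level, Vim made up most of the fibroblast sum in both groups (12.6 FPKM in Ad-GFP, with Col3a1 next at 3.64 FPKM). The r values with that sum thus do not weigh its genes alike. The points share library, depth, and sample number, and both groups hold the same numbers, so that all these r values are descriptions.

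**Figure D3:**
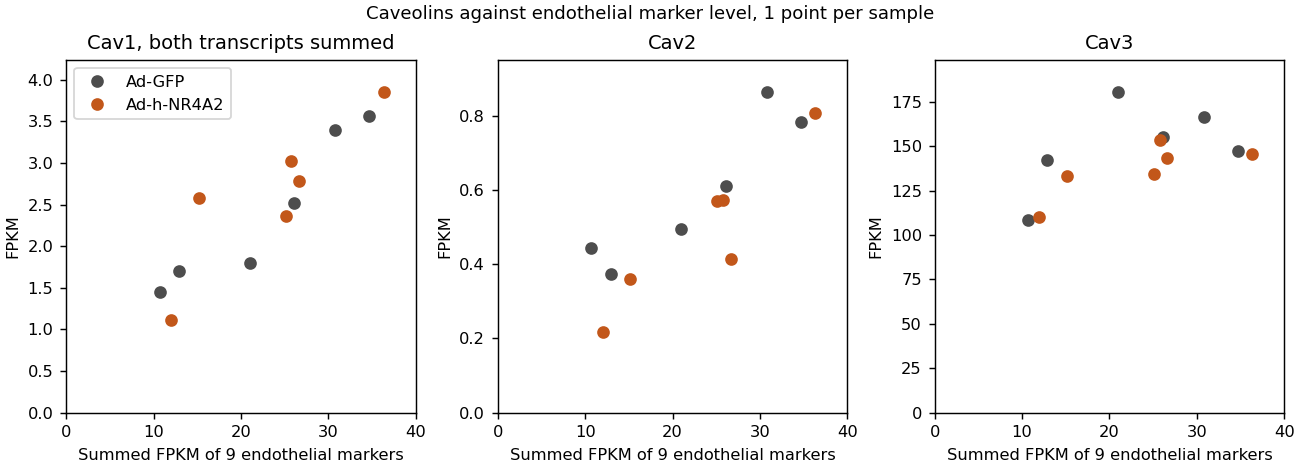
FPKM of Cav1 (both transcripts summed), Cav2, and Cav3 (y axes, from 0) against the summed FPKM of 9 endothelial markers (x axis), with 1 point per sample, grey for Ad-GFP and orange for Ad-h-NR4A2. Cav1, Cav2, and Cav3 all tend to be higher where the endothelial level is higher, with exceptions (Cav2 in Ad-h-NR4A2 replicate 29 is at 0.414 FPKM). The 2 groups span similar marker levels, 10.7 to 34.7 and 12.0 to 36.3 FPKM.

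The junctophilins did not move alike. Jph1 (chromosome 5, 1413721 to 1507659), the main junctophilin of skeletal muscle, was between 15.4 and 17.8 FPKM (median 16.6) in Ad-GFP and between 9.23 and 12.4 FPKM (median 10.0) in Ad-h-NR4A2. No Ad-h-NR4A2 sample reached the lowest control. The level fell to 0.633 times the control (16.6 ± 1.12 against 10.5 ± 1.28 FPKM, SD, n = 6), a log2 fold change of -0.66 (SE 0.08, limma adjusted p = 1.87e-05).

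Jph2 (chromosome 3, 165907933 to 165968202) is the main cardiac junctophilin. Its lowest, median, and highest levels were 47.5, 52.5, and 67.7 FPKM in Ad-GFP and 54.5, 60.7, and 67.0 FPKM in Ad-h-NR4A2. Control replicate 24 was the highest of all 12 samples, and the other 5 controls lay below most Ad-h-NR4A2 samples. The log2 difference of 0.15 (SE 0.08, 95% interval -0.02 to 0.32) did not pass (limma adjusted p = 0.149), and without control replicate 24 it was 0.21 with an adjusted p of 0.0142. The Jph2 to Jph1 ratio was 3.29 ± 0.424 in Ad-GFP and 5.80 ± 0.869 in Ad-h-NR4A2 (log2 difference 0.81, SE 0.12, exact permutation test, adjusted p = 0.00794; sign-flip over pairs, adjusted, 0.06875), so that the 2 junctophilins differed in their response.

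Bin1 (chromosome 18, 24878722 to 24937709) showed the largest difference of the 10 genes. It was at 4.40, 6.63, and 11.4 FPKM (lowest, median, highest) in Ad-GFP and at 2.42, 3.59, and 5.30 FPKM in Ad-h-NR4A2. The groups overlapped, since the lowest control (replicate 27) was below the highest Ad-h-NR4A2 samples (replicates 28 and 29), yet Bin1 was lower in 6 of 6 pairs with log2 differences of -1.12 to -0.54. The mean fell from 7.01 ± 2.49 to 3.75 ± 1.07 FPKM (SD, n = 6), 0.535 times the control, with a log2 fold change of -0.86 (SE 0.23, limma adjusted p = 0.00829). Only 1 Bin1 transcript was listed, so that the muscle and cardiac splice forms of this gene cannot be told apart. Jph2 relative to Bin1 was 8.69 ± 3.20 in Ad-GFP and 17.0 ± 4.31 in Ad-h-NR4A2 (log2 difference 1.03, SE 0.29, exact permutation test, adjusted p = 0.00952; sign-flip over pairs, adjusted, 0.06875).

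**Figure D4:**
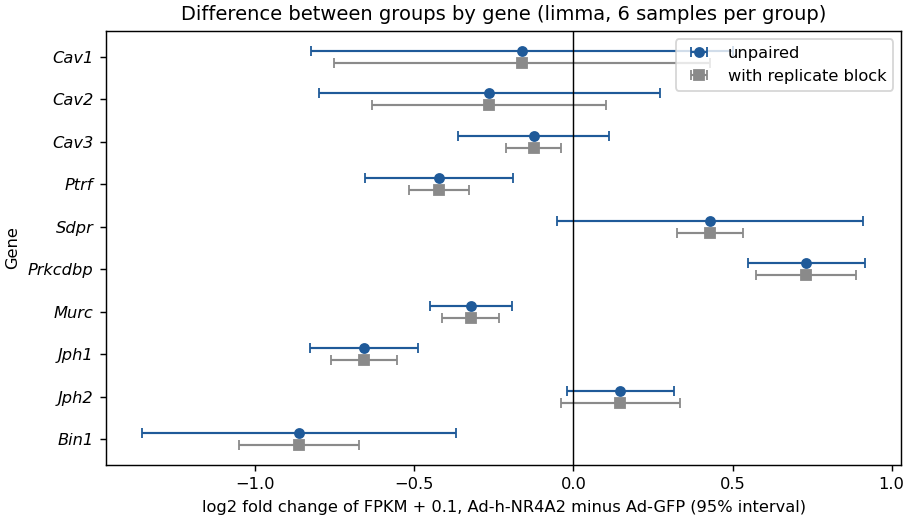
Log2 fold change of FPKM + 0.1, Ad-h-NR4A2 minus Ad-GFP, for each gene (x axis) with its 95% interval, from the unpaired limma fit (circles) and from the fit with the replicate block (squares), 6 samples per group. The interval of Sdpr is -0.05 to 0.91 unpaired and lies above 0 with the block. That of Cav3 is -0.36 to 0.11 unpaired and lies below 0 with the block. Prkcdbp, Ptrf, Murc, Jph1, and Bin1 are away from 0 in both fits.

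NR4A receptors bind as monomers to an element known as the NBRE, with the letters AAAGGTCA, which contains the nuclear receptor half-site AGGTCA. RefSeq promoters of the GRCr8 assembly, from 250 bases before to 50 bases after the start of the gene, were at hand for 8 of the 10 members, as 9 sequences. None was at hand for Prkcdbp or Jph1, so the search says nothing of these changed members. Searched on both strands, none of the 9 held the NBRE, which 1.43% of all 33469 promoters hold, and 1 held the half-site (Cav2), which 16.2% of all promoters hold; every NBRE match is also a half-site match. The Bin1 promoter is shown because Bin1 changed most, and the Cav2 promoter, chosen after the search, because it holds the single match, given in capitals. A match or its absence in this window is a description of letters. The Bin1 promoter is chr18:24283701-24284000 and the Cav2 promoter chr4:46582431-46582730, both on the plus strand.
Bin1: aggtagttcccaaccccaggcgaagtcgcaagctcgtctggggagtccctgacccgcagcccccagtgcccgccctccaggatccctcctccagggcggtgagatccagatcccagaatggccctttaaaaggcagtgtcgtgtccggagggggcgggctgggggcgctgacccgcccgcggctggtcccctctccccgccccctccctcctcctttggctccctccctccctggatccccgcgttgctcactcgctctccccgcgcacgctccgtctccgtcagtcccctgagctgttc
Cav2: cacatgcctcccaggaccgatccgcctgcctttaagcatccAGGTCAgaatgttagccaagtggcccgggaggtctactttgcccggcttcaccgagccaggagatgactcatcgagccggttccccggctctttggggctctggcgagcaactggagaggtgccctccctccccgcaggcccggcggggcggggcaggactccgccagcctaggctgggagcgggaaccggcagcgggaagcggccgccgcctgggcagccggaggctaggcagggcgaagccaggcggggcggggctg
The Cav2 match lies at position -209 from the start of the gene, and Cav2 did not pass in the comparison. The Bin1 window has no match and a GC content of 69.3%, beside a median of 51.7% over all promoters.

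Levels of some members moved together between samples beyond the group difference. Over the 12 samples, less the group means, Cav3 followed Sdpr (Pearson r = 0.90) and Ptrf (r = 0.87), and Ptrf followed Sdpr (r = 0.85), although Ptrf fell and Sdpr did not. Cav1, taken here by its more abundant transcript alone, followed Cav2 (r = 0.71). Jph1 ran against Sdpr (r = -0.76) and Bin1 against Cav3 (r = -0.72). Jph2 had an r of -0.08 with Jph1 and of -0.16 with Bin1. Among 7157 genes with a mean of at least 5 FPKM, those most like Cav3 were Mtus1 (r = 0.97), Atp6ap1l (r = 0.96), and Nit2 (r = 0.96). For Ptrf they were Atp1b1 (r = 0.97), Rasgrp3 (r = 0.94), and the sodium-calcium exchanger Slc8a1 (r = 0.94), and for Bin1 they were Vat1 (r = 0.97), Tpd52 (r = 0.94), and Mettl13 (r = 0.94). Lower values were found for the closest genes of Murc (Kdm5b 0.88, Cog7 0.86, Eef1d 0.86), of Jph2 (Hm13 0.89, RGD1307704 0.87, Scand1 0.86), and of Cav1 (Pspc1 0.84, Nid2 0.83, Chchd5 0.80). These points share library, depth, and sample number, and the genes were picked as the highest of many.

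Genes listed with the caveola, among them flotillins of distinct microdomains, were then examined. Of 12 caveola-associated genes, 5 were higher (Ehd1, Ehd4, Pacsin3, Flot1, and Src) and 2 were lower (Ehd2 and Dnm2), with a median log2 fold change of 0.16 beside -0.02 over all genes, of which 19.3% were higher and 21.7% lower. Pacsin3, a membrane-bending F-BAR protein of muscle caveolae, was at 85.8 to 97.9 FPKM in Ad-GFP and at 148 to 166 FPKM in Ad-h-NR4A2, with no overlap, and rose 1.71-fold (log2 0.77, SE 0.04, limma adjusted p = 1.83e-08). Ehd2, the ATPase that holds caveolae at the surface, was low and fell from 3.06 ± 0.522 to 2.00 ± 0.492 FPKM (SD, n = 6; log2 -0.61, limma adjusted p = 0.0104), whereas its relative Ehd4 rose from 115 ± 11.3 to 153 ± 24.3 FPKM (log2 0.40, limma adjusted p = 0.00543). Ehd1, named after its value was seen because it completes this count, rose by a log2 of 0.22 (limma adjusted p = 0.0376), a call that was lost on the TPM scale (limma adjusted p = 0.0878). Flot1, a flotillin of membrane microdomains distinct from caveolae, rose from 208 ± 20.0 to 311 ± 57.2 FPKM (log2 0.56, limma adjusted p = 0.00144). Src, a kinase that phosphorylates caveolin-1, rose from 0.893 ± 0.134 to 1.5 ± 0.503 FPKM (log2 0.63, and 0.38 with a pseudocount of 1; limma adjusted p = 0.0194). Dnm2, the dynamin that cuts membrane necks, fell by 0.24 on the log2 scale (limma adjusted p = 0.00576).

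Of 16 genes listed for T-tubules and the dyad, 13 were found by name and 11 were above 0 in all samples. Of these, 7 were lower and 2 were higher, beside 21.7% and 19.3% of all genes, with a median log2 fold change of -0.42 beside -0.02 over all genes. Speg, a muscle kinase of the junctional membranes that binds myotubularin, fell from 14.3 ± 2.48 to 6.52 ± 0.795 FPKM (SD, n = 6; log2 -1.11, limma adjusted p = 5.39e-06) by the more abundant of its 2 listed transcripts, and the change was -0.48 for the other and -0.87 for their sum. Ryr2, the calcium release channel of the sarcoplasmic reticulum, fell from 85.7 ± 9.90 to 53.4 ± 7.56 FPKM (log2 -0.68, limma adjusted p = 8.46e-05; -1.39 for the less abundant of its 2 transcripts), and Cacna1c, the pore of the L-type calcium channel that faces it across the dyad, from 18.1 ± 1.14 to 11.3 ± 1.48 FPKM (log2 -0.68, limma adjusted p = 2.26e-05). The groups did not overlap for any of these 3 genes. Their log2 changes stand beside -0.66 for Jph1 and 0.15 for Jph2 in the same samples.

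Trdn and Casq2, which anchor and buffer calcium beside Ryr2, fell by 0.48 and 0.29 on the log2 scale (limma adjusted p = 1.73e-04 and 0.0266), and Casq2 did not pass with low genes kept in the fit (limma adjusted p = 0.0666). Jsrp1, a triad protein that was under 1 FPKM in every sample, fell from 0.506 ± 0.114 to 0.171 ± 0.0716 FPKM (SD, n = 6; log2 -1.20, limma adjusted p = 5.14e-04), with a log2 change that depended on the pseudocount (-0.36 with 1 and -1.65 with 0.01, both past the threshold). Slc8a1, the sodium-calcium exchanger, was the gene with the largest rise in the list, from 45.4 ± 5.63 to 100.3 ± 11.4 FPKM (log2 1.14, limma adjusted p = 4.77e-07) by the most abundant of its 9 listed transcripts. Ehd3, a membrane trafficking ATPase, rose by a log2 of 0.25 (limma adjusted p = 0.0412), and did not pass on the TPM scale (limma adjusted p = 0.0554). The cardiomyocyte marker list also had 5 of 7 members lower, beside 21.7% of all genes, and its part in these counts was not tested.

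Relatives of the members were mostly low. Of 5 paralogs, Jph3 and Jph4 were listed at 0 in some samples and were not tested, and of the 3 tested, Bin3 alone passed, with a fall from 11.4 ± 0.815 to 9.19 ± 0.771 FPKM (SD, n = 6; log2 -0.31, limma adjusted p = 0.00255). Calpains cleave Jph2. Of their 3 genes, Capn2 fell from 36.3 ± 4.32 to 28.6 ± 2.52 FPKM (log2 -0.34, limma adjusted p = 0.00355), the small subunit Capns1 rose by a log2 of 0.14 (limma adjusted p = 0.0454; 0.109 on the TPM scale), and Capn1 had a log2 difference of -0.11 (limma adjusted p = 0.310).

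**Figure D5:**
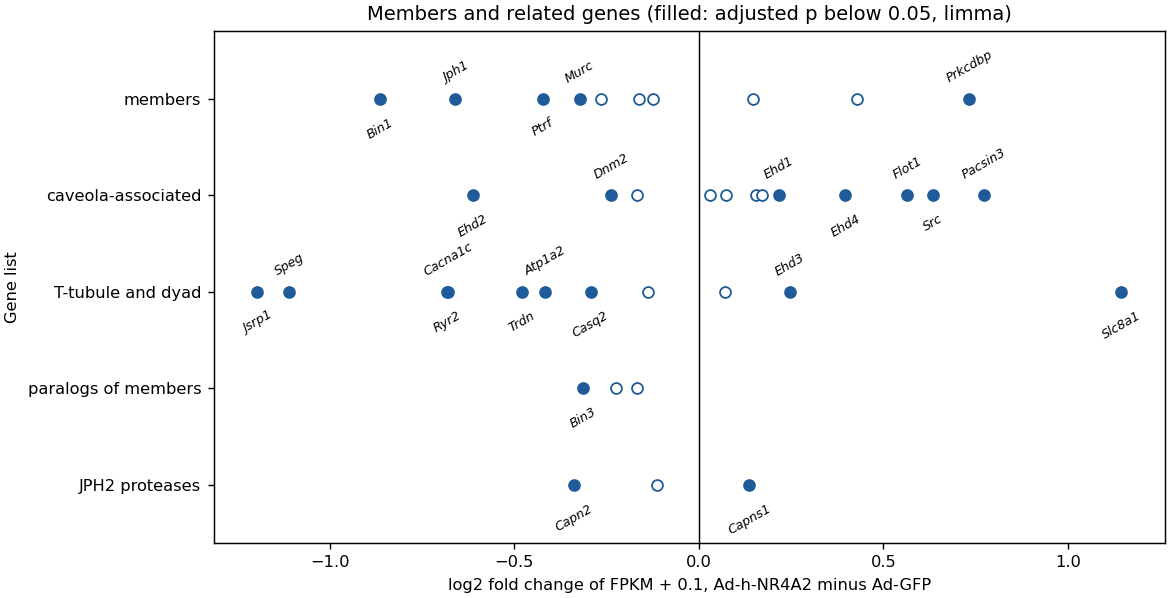
Log2 fold change of FPKM + 0.1, Ad-h-NR4A2 minus Ad-GFP (x axis), with 1 point per gene tested, for the 10 members and the 4 lists of related genes (y axis); filled points are at an adjusted p below 0.05 in limma and carry the gene name. Slc8a1 (1.14) stands apart on the right of the T-tubule and dyad list, in which 7 of 11 points are filled on the left.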

How the data were processed

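RNA of 12 ARVM samples, 6 per group, was measured. As the study's methods state, the authors made stranded mRNA libraries, sequenced them with paired ends in 1 run, used STAR for alignment to Rn5, and had Cufflinks estimate transcript levels. The deposited FPKM give fragments per kilobase of RefSeq transcript, which the authors' tool scales to the mapped fragments of a sample. Whether strand was used in the counting is not given in the sources used here. FPKM are relative to the whole sample, so a change in very abundant transcripts shifts all others.

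The transcript with the larger mean stood for a gene, and the 10950 genes that exceeded 0 in every sample were fitted as log2(FPKM + 0.1) with limma 3.58.1 (lmFit, eBayes with trend) in R 4.3.3. The fit was unpaired and two-sided, with Benjamini-Hochberg adjustment over all genes, and a fold change on this scale understates the change of low genes. SDs are of FPKM. The 11 fixed ratios, within families and across them, were compared by two-sided exact permutation tests of 6 against 6 samples, or by sign flips over pairs. Tests of ratios used NumPy 2.4.6 and SciPy 1.17.1 in Python 3.11.15, plots Matplotlib 3.10.9, and tables pandas 2.3.3. The fit and the exact tests were tested on simulated data.

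Groups come from the sample labels, which number the samples 24 to 29 in each group without saying what a number stands for. Same-numbered samples deviated from their group means together in all 6 pairs (correlation 0.347 to 0.623, mean 0.505). The 30 other pairs had correlations of -0.385 to 0.189, and so the numbers were taken to pair the samples. The mean over those other pairs, -0.0998, follows largely from subtracting the group means. Depth was recovered from whole fragments in low FPKM of transcripts of at least 800 nucleotides (98.9 to 99.6% whole within 0.05 of a fragment). Fragment numbers cover counting error only. The 11 transcript rows matched RefSeq by accession, and starts are 1-based.

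Of each gene list, the text names genes that passed with a ratio of at least 1.5 (or its inverse) and at most 3 others; Ehd1 is an exception, named after its value was seen. The members and lists were chosen with earlier results of these data known. Alternatives were other pseudocounts, filters, scalings, transcript choices, no trend, the replicate block, and leaving out each sample.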

Additional observations from a re-analysis of the deposited data

Results flagged for a closer look

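The sample groups of each member, of the named genes of the lists, and of the ratios were searched for a sample that stood far from the other 5 of its group, by Dixon's test. Of 82 groups, 3 were found, and chance alone would mark about 1 in 20. No member was among them. Jsrp1 was at 0.0366 FPKM in Ad-h-NR4A2 replicate 25, beside 0.166 to 0.233 FPKM in the other 5. Dnm2 was at 27.6 FPKM in Ad-GFP replicate 25, beside 29.5 to 30.4 FPKM. Capn2 was at 44.4 FPKM in Ad-GFP replicate 28, beside 32.4 to 36.5 FPKM.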

How the results depend on the processing

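No member or ratio changed direction under any alternative except Cav1 and the ratio of Cav3 to it. The log2 difference of Cav1 was -0.16 by its main transcript, 0.11 with transcripts summed, and 0.77 for NM_133651 by itself. The log2 difference of Cav3 to Cav1 was 0.05, was -0.24 with transcripts summed, and ranged from -0.10 to 0.25 when single samples were left out; none of these values passed. The count of members called lower was 4 and became 5 with the replicate block (Cav3), and the count with a ratio of at most 1/1.5 was 2 in every alternative run. The count called higher was 1 and became 2 with the replicate block (Sdpr), and ranged from 1 to 2 when single samples were left out: Jph2 passed without Ad-GFP replicate 24, and Sdpr without Ad-GFP replicate 27, then also at a ratio of at least 1.5 (a count that ranged from 1 to 2), or without Ad-h-NR4A2 replicate 28. Of the 5 ratios that passed, 0 passed with pairs as the replicate block, where sign flips over 6 pairs gave 0.06875 at the least after adjustment. The Cav2 to Cav1 ratio passed with transcripts summed (log2 difference -0.45). The block changed the call of Sdpr and Cav3 and of no other member; in the lists it added Flot2 (higher; limma adjusted p = 0.00155), and Pacsin2, Mtm1, Tnni3, Kdr, Col1a1, and Pdgfra (lower; 0.0166, 0.00845, 0.00241, 0.00409, 0.00616, and 0.0101), and it ended no call there. Of the named genes of the lists, Casq2, Ehd1, Ehd3, and Capns1 lost their calls when low genes were kept in the fit (limma adjusted p = 0.0666, 0.0804, 0.0763, and 0.0715); Ehd1, Ehd3, and Capns1 also on the TPM scale; and Ehd1 and Capns1 after quantile normalization (limma adjusted p = 0.0558 and 0.0846) or with no trend (0.0546 and 0.0738). Casq2 lost it without Ad-GFP replicate 25 or 27 or Ad-h-NR4A2 replicate 24 or 28; Ehd1 without Ad-GFP replicate 25, 26, 27, 28, or 29 or Ad-h-NR4A2 replicate 26 or 28; Ehd3 without Ad-GFP replicate 24, 26, 28, or 29 or Ad-h-NR4A2 replicate 25, 26, 27, or 29; and Capns1 without Ad-GFP replicate 25, 26, 27, or 28 or Ad-h-NR4A2 replicate 24, 27, or 29 (limma adjusted p at most 0.102 in all of these). Of the minor transcripts of Slc8a1, tested by themselves, 3 had log2 differences of -0.84, -0.41, and -0.26 that did not pass. A filter at a mean of 1 FPKM removed Cav2 from the test, and also Jsrp1, which was therefore not called there. Depth limits Cav1 and Cav2, and the single listed transcript limits Bin1.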
